A study of Mus musculus with 7 samples.

Results

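The genes described here are the 10 genes of MHC class II antigen presentation and their regulator that the deposited table lists as H2-Aa, H2-Ab1, H2-Eb1, Cd74, H2-DMa, H2-DMb1, H2-DMb2, H2-Oa, H2-Ob and Ciita. They were chosen by name, as the rows of these symbols, and all 10 were found among the 24341 genes of the table. Of the 10, 8 lie on chromosome 17, Cd74 lies on chromosome 18 and Ciita on chromosome 16. The data are RNA-seq of B-cell precursors, or BCP cells, that were sorted out of spleens of Eμ-Ret mice (Emu-Ret hemizygote, BALB/c background). The transgene is an oncogenic Ret fusion gene driven by the enhancer of the immunoglobulin heavy chain locus. Of the samples, 4 were preleukemic, taken from healthy young mice (disease state Preleukemia), and 3 were leukemic, taken from moribund older animals (Overt Disease). All 7 samples carried the transgene, so no sample shows BCP cells without it, and age and disease state cannot be told apart. The labels do not say whether each sample came from a separate mouse, and p-values measure the spread between these samples only. Values are FPKM, which are fragments scaled to transcript length and to sequencing depth.

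MHC class II molecules display peptides from endosomes on the cell surface to CD4 T cells. H2-Aa and H2-Ab1 encode the alpha and beta chains of I-A, and H2-Eb1 encodes the beta chain of I-E. Cd74 encodes the invariant chain, which occupies the groove and guides the new heterodimer to the endosome. There the DM heterodimer, encoded by H2-DMa with H2-DMb1 or H2-DMb2, exchanges the last fragment of the invariant chain for peptide, and the DO heterodimer of H2-Oa and H2-Ob restrains DM in B cells. Ciita encodes the coactivator of class II transcription, which binds to RFX, CREB and NF-Y proteins at the X and Y boxes of class II promoters. Class II expression is known to be low in pro-B cells and to rise with B-cell maturation, and macrophages, dendritic cells and mature B cells express it at high levels.

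The steps between low values implied a depth of 13.5 to 16.2 M fragments per sample, where M stands for 1e6. All 14 genes of a B-cell precursor marker list were detected, with a summed level of 3510 to 5370 FPKM in leukemic and 6520 to 8180 FPKM in preleukemic samples. Of these 14 genes, 4 were called lower and 0 higher in leukemic samples. The gene of the sorting marker BP-1, Enpep, had 19.1, 102 and 77.2 FPKM across leukemic replicates 1 to 3 and between 134 and 210 FPKM in preleukemic samples, so leukemic replicate 1 had the lowest level of the marker on which the cells were sorted.

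The promoter sequences of 7 of the 10 members were found in RefSeq (GRCm38.p6, the C57BL/6J genome), and they are shown because class II genes are known to share a promoter layout of X and Y boxes. H2-Ab1, Cd74 and Ciita were not among them. Windows ran from 250 bases before to 50 bases after a listed start of each gene. On both strands they were searched for the X box letters CCNAGNNAC, for the Y box letters ATTGG, and for a shorter X core, GNAAC, that was chosen after the promoters had been seen. The 2 X searches can overlap. Letters of an X core with 15 to 40 bases between it and a following ATTGG were found in 5 of the 7 members, against 4.23% of the 32851 windows of all genes. GNAAC alone occurred in 84.8% of windows. Because it was chosen after these promoters had been seen, the count of 5 is no test of enrichment. With the longer CCNAGNNAC in the same arrangement, 3 of the 7 members (H2-DMb1, H2-Oa and H2-Ob) matched, against 0.426% of windows. The sequences below run 5′ to 3′ in the direction of transcription, with the X core and the Y box in capitals.
H2-Aa (chr17:34287862-34287916, minus strand): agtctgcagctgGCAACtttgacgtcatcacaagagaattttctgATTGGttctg
H2-Eb1 (chr17:34305764-34305817, plus strand): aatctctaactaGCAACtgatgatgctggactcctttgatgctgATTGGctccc
H2-DMb1 (chr17:34153085-34153139, plus strand): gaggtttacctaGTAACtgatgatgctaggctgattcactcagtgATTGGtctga
H2-Oa (chr17:34092291-34092345, plus strand): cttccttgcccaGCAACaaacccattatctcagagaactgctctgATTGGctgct
H2-Ob (chr17:34238806-34238857, plus strand): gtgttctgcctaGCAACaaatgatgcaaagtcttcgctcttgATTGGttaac
The spacing was alike in these 5 genes, with 25 bases between the boxes in H2-Ob, 27 in H2-Eb1 and 28 in H2-Aa, H2-DMb1 and H2-Oa. No such pair of letters was found in the windows of H2-DMa, which has 2 listed starts, or of H2-DMb2. The window of H2-DMb2 (chr17:34144999-34145298, plus strand) ended before the start of that gene in the deposited positions, 34145415. A pair just before that position would therefore not have been found.

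The genes of the classical class II chains were higher in leukemic than in preleukemic BCP cells. The question of this comparison was which genes differ between preleukemia and overt leukemia. Of the 10 members, 8 passed a filter on low values (a sum of at least 10 FPKM over the 7 samples) and were tested with limma on the log2(FPKM + 1) scale, with Benjamini-Hochberg adjustment over all 10541 genes tested. H2-DMb1 and Ciita, with sums of 4.47 and 7.77 FPKM, did not pass the filter, and their values are given without a test. Of the 8 members tested, 4 were called higher (adjusted p under 0.05), 0 were called lower and 4 were not called. Among all genes tested, 8.47% were called higher and 6.26% lower, and among the 592 genes tested on chromosome 17 these shares were 33.6% and 0.507%. The log2 fold change was above 0 for 8 of the 8 members, 47.9% of all genes tested and 85% of those on chromosome 17. The median log2 fold change was 1.12 over the 8 members, -0.02 over all genes tested and 0.35 over those of chromosome 17. In 7 of the 10 members each leukemic sample was above every preleukemic sample, as it was for 14.9% of the 16676 genes detected in any sample and 49.5% of the chromosome 17 genes tested. Because 1 is added to every value, fold changes on this scale understate the change of genes with low FPKM. In bulk samples a change in the share of cells that express a gene and a change in RNA per cell cannot be told apart.

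H2-Aa (chr17:34282750-34287771) showed the largest fold change of the 8 members tested. It had 19.3, 52.3 and 89.5 FPKM in leukemic replicates 1, 2 and 3, and 10.6, 10.9, 13 and 18 FPKM in preleukemic replicates 1 to 4. The groups did not overlap, but leukemic replicate 1 lay just above preleukemic replicate 4. The means were 53.7 ± 35.1 FPKM (SD, n = 3) and 13.1 ± 3.44 FPKM (SD, n = 4), a log2 fold change of 1.73 ± 0.47 (SE, limma adjusted p = 0.0478).

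H2-Ab1 (chr17:34263226-34269418), which encodes the partner chain of I-A, had a higher level in both groups and a smaller fold change. It had 78.0, 117 and 138 FPKM across leukemic replicates 1 to 3, and 45.8, 42.5, 66.6 and 63.9 FPKM in preleukemic replicates 1 to 4. All leukemic samples were above all preleukemic samples. Its log2 fold change was 0.99 ± 0.24 (SE, limma adjusted p = 0.0344).

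H2-Eb1 (chr17:34305866-34316674), the beta chain gene of I-E, had 12.5, 33.2 and 47.1 FPKM across leukemic replicates 1 to 3 and 7.06, 7.61, 8.34 and 12.1 FPKM in preleukemic replicates 1 to 4. Leukemic replicate 1 was again the lowest of its group and close to preleukemic replicate 4. The log2 fold change was 1.55 ± 0.41 (SE, limma adjusted p = 0.0459).

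Cd74 lies outside chromosome 17 and had values ordered like those of H2-Aa and H2-Eb1. Leukemic replicates 1 to 3 had 50.3, 134 and 214 FPKM, and preleukemic replicates 1 to 4 had 33.8, 34.0, 39.5 and 48.7 FPKM. The groups did not overlap, and the means were 133 ± 81.7 (SD, n = 3) and 39.0 ± 6.97 FPKM (SD, n = 4). Its log2 fold change of 1.53 (standard error 0.44) did not pass the threshold (limma adjusted p = 0.0571). Without leukemic replicate 1 it was 2.10 and passed (limma adjusted p = 0.00584). No other removal of a single sample made it pass. It was 1.41 without leukemic replicate 2 (limma adjusted p = 0.113) and 1.07 without leukemic replicate 3 (limma adjusted p = 0.0992).

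**Figure D1:**
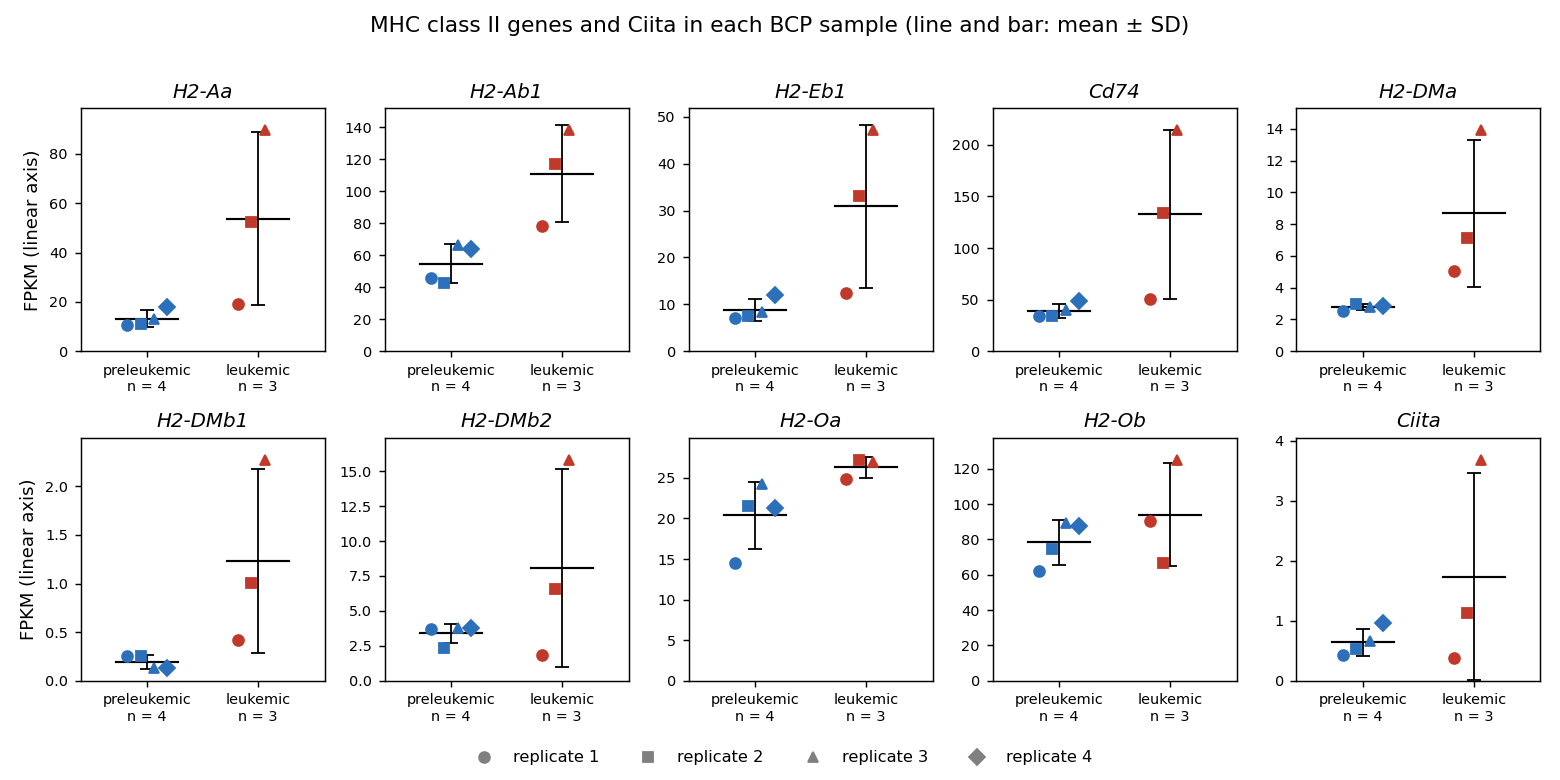
FPKM of the 10 members in each of the 7 BCP samples, on linear axes that start at 0, with the marker shape giving the replicate number and lines and bars giving the mean ± SD of 4 preleukemic and 3 leukemic samples. H2-Aa, H2-Ab1, H2-Eb1, Cd74, H2-DMa, H2-DMb1 and H2-Oa show no overlap between the groups, and leukemic replicate 3 is the highest sample for every member but H2-Oa.

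The row that pairs with H2-Eb1 is listed as H2-Ea-ps, the alpha chain gene of I-E. The gene is called a pseudogene because the C57BL/6 haplotype of the reference genome does not express it, whereas the BALB/c haplotype does. It is no member, but its values belong beside those of H2-Eb1. H2-Ea-ps had 19.2, 50.4 and 97.8 FPKM across leukemic replicates 1 to 3 and between 8.47 and 18.6 FPKM in preleukemic samples, so it was expressed in all 7 samples. Its log2 fold change was 1.89 ± 0.52 (SE, limma adjusted p = 0.0496). The ratio of H2-Ea-ps to H2-Aa, the alpha chain gene of I-A, ran from 0.963 to 1.09 in leukemic and from 0.799 to 1.03 in preleukemic samples. H2-Eb2, a further beta chain gene of the region, had 0.452, 4.48 and 10.2 FPKM across leukemic replicates 1 to 3 and from 1 to 3.55 FPKM in preleukemic samples, and was not called (limma adjusted p = 0.63). Reads of BALB/c class II genes were placed on a reference of another haplotype, and the part of this in the levels of single genes was not tested; it is shared by all 7 samples.

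Among the peptide-loading genes, the alpha chain gene of DM was the only tested member that was called. H2-DMa (chr17:34122831-34139101) had 5.04, 7.11 and 13.9 FPKM across leukemic replicates 1 to 3, and 2.51, 2.96, 2.79 and 2.87 FPKM in preleukemic replicates 1 to 4. The preleukemic samples lay close together, and the lowest leukemic sample stood well clear of them. Its log2 fold change was 1.25 ± 0.28 (SE, limma adjusted p = 0.0298), the smallest adjusted p of the 8 members tested.

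The copies of the DM beta chain gene are neighbours on chromosome 17. H2-DMb2 (chr17:34145415-34151095) had 1.87, 6.57 and 15.8 FPKM across leukemic replicates 1 to 3, and 3.69, 2.34, 3.76 and 3.78 FPKM in preleukemic replicates 1 to 4. Leukemic replicate 1 was the lowest of all 7 samples and leukemic replicate 3 the highest, so the groups overlapped and the gene was not called (log2 fold change 0.72 ± 0.53 SE, limma adjusted p = 0.367). Without leukemic replicate 1 the log2 fold change was 1.37 and passed (limma adjusted p = 0.0397). It was 0.67 without leukemic replicate 2 (limma adjusted p = 0.482) and 0.10 without leukemic replicate 3 (limma adjusted p = 0.872). Removing any single preleukemic sample did not make it pass either.

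H2-DMb1 (chr17:34153190-34160229) was listed far lower, at 0.419, 1.01 and 2.27 FPKM across leukemic replicates 1 to 3 and at 0.250, 0.253, 0.134 and 0.136 FPKM in preleukemic replicates 1 to 4. The groups did not overlap, and the ratio of the means was 6.39, the widest of the 10 members. At the implied depth its lowest value stands for about 2.21 fragments, a counting error of 67.2%, so the ratio is imprecise. The transcripts of the copies share sequence. Of the 50-base stretches of the H2-DMb1 transcripts, 22.7% also occur in those of H2-DMb2, and how fragments of these stretches were divided between the rows is not given in the sources used here. The split between H2-DMb1 and H2-DMb2 is therefore uncertain.

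The genes of DO, the B-cell partner that restrains DM, were not called. H2-Oa (chr17:34083842-34095309) had 24.8, 27.2 and 26.9 FPKM across leukemic replicates 1 to 3, and 14.5, 21.5, 24.2 and 21.3 FPKM in preleukemic replicates 1 to 4. All leukemic values were above all preleukemic values, by a narrow margin over preleukemic replicate 3. The log2 fold change of 0.37 (standard error 0.16) did not pass (limma adjusted p = 0.156), and it is close to the median of chromosome 17. The span listed for H2-Oa is also that of the transcript BC051537, which had at most 0.346 FPKM.

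H2-Ob (chr17:34238904-34245908) had 90.5, 66.7 and 125 FPKM across leukemic replicates 1 to 3, and 62.3, 74.4, 89.5 and 87.9 FPKM in preleukemic replicates 1 to 4. The groups overlapped, with leukemic replicate 2 below 3 of the 4 preleukemic samples. Its log2 fold change was 0.23 ± 0.22 (SE, limma adjusted p = 0.491). With each sample centred on the genes of chromosome 17 it was -0.13, so its direction depends on the scaling.

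The levels of the members, compared per transcript length, had a fixed order at the top in preleukemic cells. H2-Ob was above H2-Ab1, H2-Ab1 above Cd74, Cd74 above H2-Oa, H2-Oa above H2-Aa and H2-Aa above H2-Eb1 in 4 of 4 preleukemic samples. The ranges of H2-Ob and H2-Ab1, of H2-Ab1 and Cd74, of H2-Oa and H2-Aa and of H2-Aa and H2-Eb1 overlapped over the group, whereas those of Cd74 and H2-Oa did not. H2-Ob was between 4.87 and 6.88 times the level of H2-Aa in preleukemic samples. In leukemic replicates 1, 2 and 3 this ratio was 4.69, 1.28 and 1.39. The mean level in leukemic samples was highest for Cd74, which was above H2-Ab1 in 2 of 3 samples.

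Ciita (chr16:10480071-10527640) was low in every sample. It had 0.387, 1.13 and 3.68 FPKM across leukemic replicates 1 to 3, and 0.437, 0.524, 0.656 and 0.957 FPKM in preleukemic replicates 1 to 4. Leukemic replicate 1 was the lowest of all 7 samples and leukemic replicate 3 the highest, so the groups overlapped. The difference of the means on the log2(FPKM + 1) scale was 0.56, and without leukemic replicate 3 it was 0.08. Without a filter on low values, where Ciita could be tested, it did not pass (limma adjusted p = 0.39). Its values stand for about 34.5 to 346 fragments, if the longest annotated transcript is taken, which is a counting error of 17% at the lowest value.

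In leukemic replicate 1, Ciita was below all 4 preleukemic samples, while H2-Aa, H2-Ab1, H2-Eb1, Cd74 and H2-DMa were above them. For Ciita this rests on 0.387 against 0.437 FPKM, with a counting error of 17% at the lower value. The margin was also narrow for Cd74 (50.3 against 48.7 FPKM), H2-Eb1 (12.5 against 12.1) and H2-Aa (19.3 against 18). It was wider for H2-Ab1 (78 against 66.6 FPKM) and H2-DMa (5.04 against 2.96). In leukemic replicates 2 and 3, Ciita and each of these 5 genes were above all preleukemic samples. The leukemic samples differed from each other more than the preleukemic samples did. The highest leukemic value divided by the lowest was larger than the same ratio among preleukemic samples in 9 of the 10 members, and it was 9.49 for Ciita, 8.46 for H2-DMb2, 4.64 for H2-Aa and 4.25 for Cd74. The share of all genes with a wider leukemic ratio was not computed. Weights estimated per sample over all genes tested, which are lower for more variable samples, were 0.28 to 0.71 in leukemic and 0.86 to 3.27 in preleukemic samples. The wider spread was therefore not particular to the members. Leukemic replicate 3 was the highest sample in 9 of the 10 members and leukemic replicate 1 the lowest leukemic sample in 9 of the 10. H2-Oa was the exception to the wider spread, with a ratio of 1.10 among leukemic and 1.67 among preleukemic samples. Summed over the 10 members, leukemic replicates 1 to 3 had 283, 446 and 675 FPKM, and preleukemic replicates 1 to 4 had 181, 197, 249 and 260 FPKM. Among preleukemic samples, replicate 1 was the lowest in 7 members and replicate 4 the highest in 5.

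**Figure D2:**
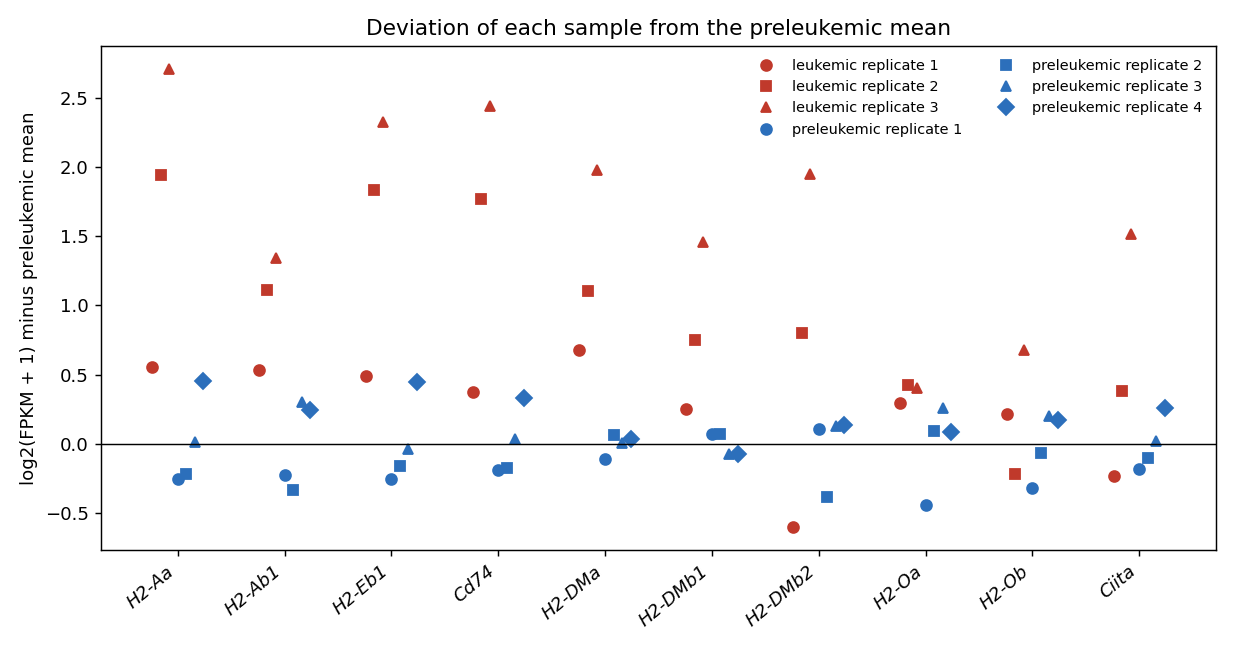
Difference of each sample from the preleukemic mean on the log2(FPKM + 1) scale for the 10 members, in red for 3 leukemic and blue for 4 preleukemic samples, with the marker shape giving the replicate number. In H2-Aa the leukemic samples lie 0.55, 1.95 and 2.71 above the preleukemic mean, and in H2-DMb2 and Ciita leukemic replicate 1 lies below it.

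The genes with the profile most like that of Cd74 were sought among the 10540 other genes tested, by the root mean square difference over the 7 samples after each gene was centred on its own mean. The closest were H2-Eb1 (0.0888 on the log2 scale), H2-Aa (0.122) and H2-Ea-ps (0.25), followed by the urea transporter gene Slc14a1 (0.304) and the transporter gene Abcc4 (0.308). The closest to Ciita were Il4i1 (0.159), the adaptor gene Lat2 (0.163), the ubiquitin ligase gene Rnf145 (0.184), Rnase6 (0.236) and Oasl1 (0.243). Il4i1, which encodes a secreted amino acid oxidase, had 0.722, 1.27 and 6.00 FPKM across leukemic replicates 1 to 3 and between 0.603 and 1.40 FPKM in preleukemic samples. No class II gene was among the 5 closest to Ciita. This measure depends on the size of changes as well as on their order. The added 1 shrinks the changes of low genes such as Ciita. H2-DMb1 did not pass the filter and was not compared. The result therefore does not show whether Ciita and the class II genes move together.

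The class II genes were also set against the other genes of chromosome 17. The paper reports a gain of this chromosome in every leukemia it examined for copy number, and in some preleukemic samples. The karyotypes of the samples used for RNA are not given in the sources used here. The part of a chromosome gain in the class II values was not tested. Between H2-Oa and H2-Ea-ps the table lists 6 genes that are not class II genes, of which 5 were tested, and this set was chosen after the values had been seen. These are Brd2, which encodes a chromatin reader, the immunoproteasome genes Psmb8 and Psmb9 and the peptide transporter genes Tap1 and Tap2. Their log2 fold changes ran from 0.22 (Tap1) to 0.49 (Psmb8 and Psmb9), with a median of 0.33, and only Psmb8 was called (limma adjusted p = 0.0213). H2-Aa, H2-Ab1, H2-Eb1 and H2-DMa, between 0.99 and 1.73, were all above the 5 interleaved genes, as were H2-Ea-ps (1.89) and H2-DMb2 (0.72, not called). H2-Oa, H2-Ob and H2-Eb2, at 0.37, 0.23 and 0.48, were within the range of the interleaved genes. Of the 592 genes tested on chromosome 17, 17 had a larger log2 fold change than H2-Aa, 24 than H2-Eb1, 34 than H2-DMa and 49 than H2-Ab1. The number was 95 for H2-DMb2, 275 for H2-Oa and 390 for H2-Ob, and, outside the members, 11 for H2-Ea-ps and 200 for H2-Eb2.

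With each sample centred on the median of the chromosome 17 genes, H2-Aa kept a log2 difference of 1.38, H2-Eb1 of 1.19, H2-DMa of 0.89 and H2-Ab1 of 0.63, whereas H2-Oa was at 0.01. None of these passed when adjusted over the 592 genes of the chromosome, with limma adjusted p from 0.0828 to 0.0981 for the 4 genes called on the values as deposited.

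**Figure D3:**
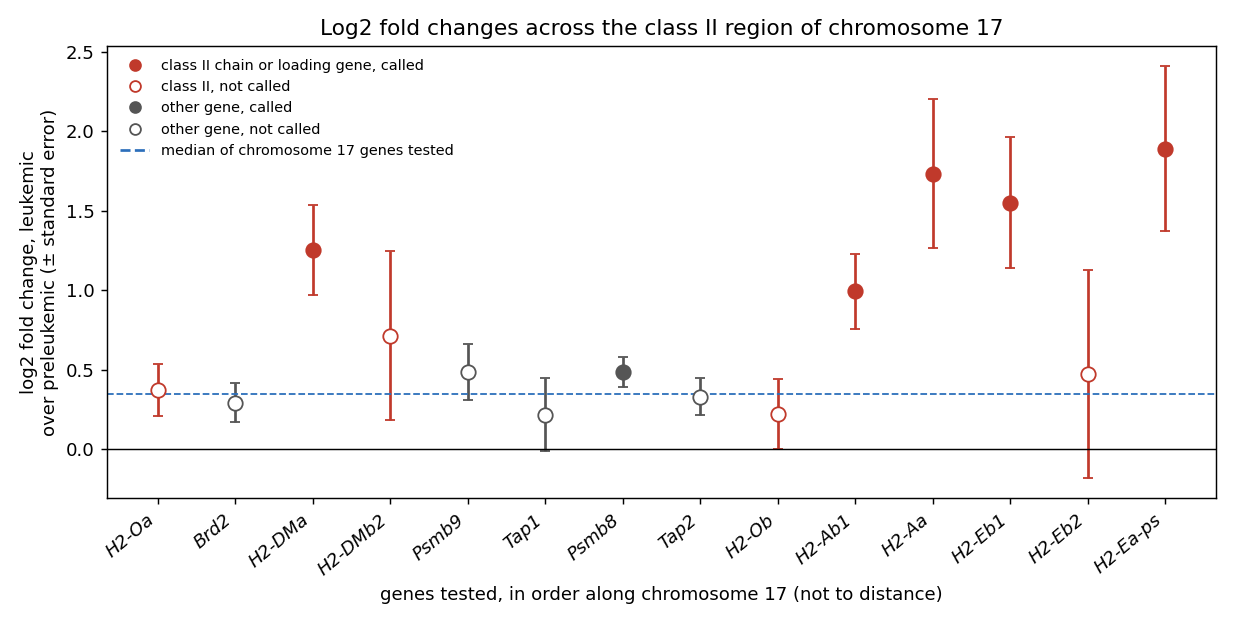
Log2 fold change (leukemic over preleukemic, ± standard error, limma) of the 14 genes tested between H2-Oa and H2-Ea-ps, in their order along chromosome 17, with class II genes in red, other genes in grey and called genes filled. The dashed line is the median of the 592 chromosome 17 genes tested, 0.35, and H2-DMa, H2-Ab1, H2-Aa, H2-Eb1 and H2-Ea-ps are the filled red points above it.

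The balance between members was compared within each library, as the difference of 2 genes on the log2(FPKM + 1) scale, in 6 pairs. H2-Aa was nearer to H2-Ab1 in leukemic samples, with a difference of -1.24 ± 0.68 (SD, n = 3) against -1.98 ± 0.22 (SD, n = 4), but this change of 0.74 did not pass (exact permutation test over 35 labelings, two-sided, p = 0.0857, adjusted p = 0.257). Leukemic replicate 1, at -1.96, lay within the preleukemic range. As a plain ratio of FPKM, H2-Aa to H2-Ab1 was 0.247, 0.448 and 0.650 in leukemic replicates 1 to 3 and 0.195 to 0.283 in preleukemic samples. The same comparison gave 0.56 for H2-Eb1 and H2-Ab1 (exact permutation p = 0.143, adjusted p = 0.286) and 0.53 for Cd74 and H2-Ab1 (exact permutation p = 0.2, adjusted p = 0.3). Only H2-DMa and H2-DMb1 showed no overlap between the groups (0.43, exact permutation p = 0.0286, the smallest possible, adjusted p = 0.171), and with 0.1 in place of 1 added to the FPKM the difference turned to -0.47. None of the 6 pairs passed after adjustment, the other pairs being H2-DMb1 with H2-DMb2 (0.10, adjusted p = 0.8 from exact permutation) and H2-Oa with H2-Ob (0.15, adjusted p = 0.72 from exact permutation).

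Genes that act around class II were read from the same fit. Of 10 genes of the promoter complex, in which RFX, NF-Y and CREB proteins recruit Ciita and its coactivators, 0 were called. Their median log2 fold change was -0.20. Rfx5, which encodes the DNA-binding subunit of RFX, had 13.1, 14.0 and 12.3 FPKM across leukemic replicates 1 to 3 and between 14.1 and 19.5 FPKM in preleukemic samples (log2 fold change -0.31, limma adjusted p = 0.106). The member with the highest level was Nfya, a subunit gene of NF-Y that lies on chromosome 17 (log2 fold change 0.39, limma adjusted p = 0.106).

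Of 11 genes tested that act upstream of Ciita, 2 were called lower and 0 higher. These were Pax5 (log2 fold change -0.78, limma adjusted p = 0.0134), which encodes a B-lineage transcription factor, and Ifngr2 (-0.51, limma adjusted p = 0.0465), which encodes a chain of the interferon gamma receptor. The median log2 fold change of the 11 genes was -0.31. Among leukemic samples, 8 of the 12 genes of this list were highest in replicate 3, 3 in replicate 2 and 1 in replicate 1. Only 4 of the 12 rose in the order of replicates 1, 2 and 3, as Ciita did. The share of all genes that were highest in replicate 3 was not computed, so these counts are not read as a likeness to Ciita.

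Of 8 genes tested for endosomal processing, 4 were called higher, which were the protease genes Ctsb (log2 fold change 1.16, limma adjusted p = 0.0123), Ctsl (1.56, limma adjusted p = 0.0132), Lgmn (1.14, limma adjusted p = 0.0167) and Ctsd (0.74, limma adjusted p = 0.0242). Ctss, which encodes the protease that trims the invariant chain in B cells and dendritic cells, had 91.6, 110 and 141 FPKM across leukemic replicates 1 to 3 and between 64.6 and 87.9 FPKM in preleukemic samples, and did not pass (log2 fold change 0.52, limma adjusted p = 0.0737). Ifi30, a reductase gene of the endosome with the highest level of the list, had close to the same mean in both groups (log2 fold change 0.00 ± 0.14 SE, limma adjusted p = 0.988).

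Among leukemic samples, 9 of the 11 genes of MHC class I and its loading were highest in replicate 2, Tap2 was highest in replicate 3 and Psmb8 in replicate 1. Of the 10 tested, only Psmb8 was called, and the median log2 fold change was -0.05. B2m, which encodes the light chain of class I and had the highest level of the list, was not called (log2 fold change -0.23, limma adjusted p = 0.433). The class I heavy chain gene H2-K1, which has close relatives among which reads may be divided, had 256, 610 and 263 FPKM across leukemic replicates 1 to 3 and between 301 and 458 FPKM in preleukemic samples, so that its highest value was in leukemic replicate 2 (limma adjusted p = 0.724). Nlrc5, which encodes the class I counterpart of Ciita, had 8.01, 18.5 and 8.89 FPKM across leukemic replicates 1 to 3 and between 11.2 and 25.7 FPKM in preleukemic samples (limma adjusted p = 0.277).

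Markers of macrophages, dendritic cells and mature B cells, which also express class II, were read from the same samples. Of 15 macrophage and monocyte genes, 11 were tested, of which 7 were called higher and 0 lower, with a median log2 fold change of 1.96. Their summed level was 163, 370 and 266 FPKM across leukemic replicates 1 to 3, with the maximum in replicate 2, and 37.2 to 89.4 FPKM in preleukemic samples. The macrophage receptor gene Csf1r had 11.3, 22.6 and 15.2 FPKM across leukemic replicates 1 to 3 and between 1.10 and 2.03 FPKM in preleukemic samples. Among leukemic samples, 14 of the 15 macrophage genes were highest in replicate 2. Lyz2, the most abundant of the list, was highest in replicate 3, with 115, 124 and 163 FPKM across leukemic replicates 1 to 3. This is the order of most class II genes among leukemic samples only. In preleukemic replicates 1 to 4 Lyz2 fell, with 70.1, 49.9, 25.1 and 21.6 FPKM, whereas H2-Aa rose, with 10.6, 10.9, 13 and 18 FPKM. These are single genes of their lists. Csf1r did not fall steadily across these samples, and H2-DMa and H2-DMb1 did not rise steadily. The neutrophil gene S100a8 was also higher in the first of them, with 382, 249, 71.3 and 104 FPKM. The part of macrophages in the class II values was not tested.

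Of 13 dendritic cell genes only Ccr7 passed the filter, and it was not called (limma adjusted p = 0.447). Their summed level was 10.1 to 29.2 FPKM in leukemic and 12.9 to 16.6 FPKM in preleukemic samples. Ccr7 made up most of the preleukemic sum, with 10.2 to 15.1 FPKM in those samples. It had 3.18, 10.2 and 16.5 FPKM across leukemic replicates 1 to 3. The summed level therefore does not show the direction of the other genes of the list. Of the 13 genes, 7 were below 1 FPKM in every sample, Xcr1 and Clec9a among them, and Cd300c was at the floor of the table throughout. In 7 of the 13 each leukemic sample was above every preleukemic sample. Among leukemic samples, 7 of the 13 were highest in replicate 2 and 4 in replicate 3. Itgax, which encodes CD11c, was among the 4, with 1.97, 2.95 and 3.63 FPKM across leukemic replicates 1 to 3 and between 0.151 and 0.376 FPKM in preleukemic samples. Zbtb46, a transcription factor gene of classical dendritic cells, was among the 7, with 0.741, 2.30 and 1.57 FPKM in leukemic and between 0.0608 and 0.607 FPKM in preleukemic samples.

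Of 10 mature B-cell genes tested, with a median log2 fold change of -0.17, only Cd86, the gene of a costimulatory ligand, was called, with 2.40, 3.64 and 7.35 FPKM across leukemic replicates 1 to 3 and between 0.696 and 1.11 FPKM in preleukemic samples (log2 fold change 1.44, limma adjusted p = 0.0261). The summed level of that list was 374 to 686 FPKM in leukemic and 325 to 503 FPKM in preleukemic samples. Markers of red cell precursors (9 of 9 tested), neutrophils (3 of 8) and T and NK cells (0 of 7) were called higher in leukemic samples. Red cell precursor genes summed to 1670, 7300 and 3730 FPKM across leukemic replicates 1 to 3 and to 51.4 to 802 FPKM in preleukemic samples. For neutrophil genes the sums were 1520, 1410 and 1750 FPKM against 148 to 861 FPKM. Among leukemic samples, 6 of the 9 neutrophil genes were highest in replicate 3. The part of other cells in the class II values was not tested.

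The calls of the class II genes were near the threshold and depended on single samples. When any single preleukemic sample was removed, 0 members were called, and H2-Aa, H2-Ab1, H2-Eb1 and H2-DMa had limma adjusted p from 0.0642 to 0.113, while the number called among all genes fell from 1553 to 932, 443, 271 and 149 without replicates 1, 2, 3 and 4. Without leukemic replicate 2 or 3 only H2-DMa was called (limma adjusted p = 0.0456 and 0.0315), and without leukemic replicate 1 there were 6, with Cd74 and H2-DMb2 added. The log2 fold changes of H2-Aa stayed between 1.25 and 2.33, those of H2-Eb1 between 1.17 and 2.08, those of H2-Ab1 between 0.82 and 1.22 and those of H2-DMa between 0.89 and 1.54.

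**Figure D4:**
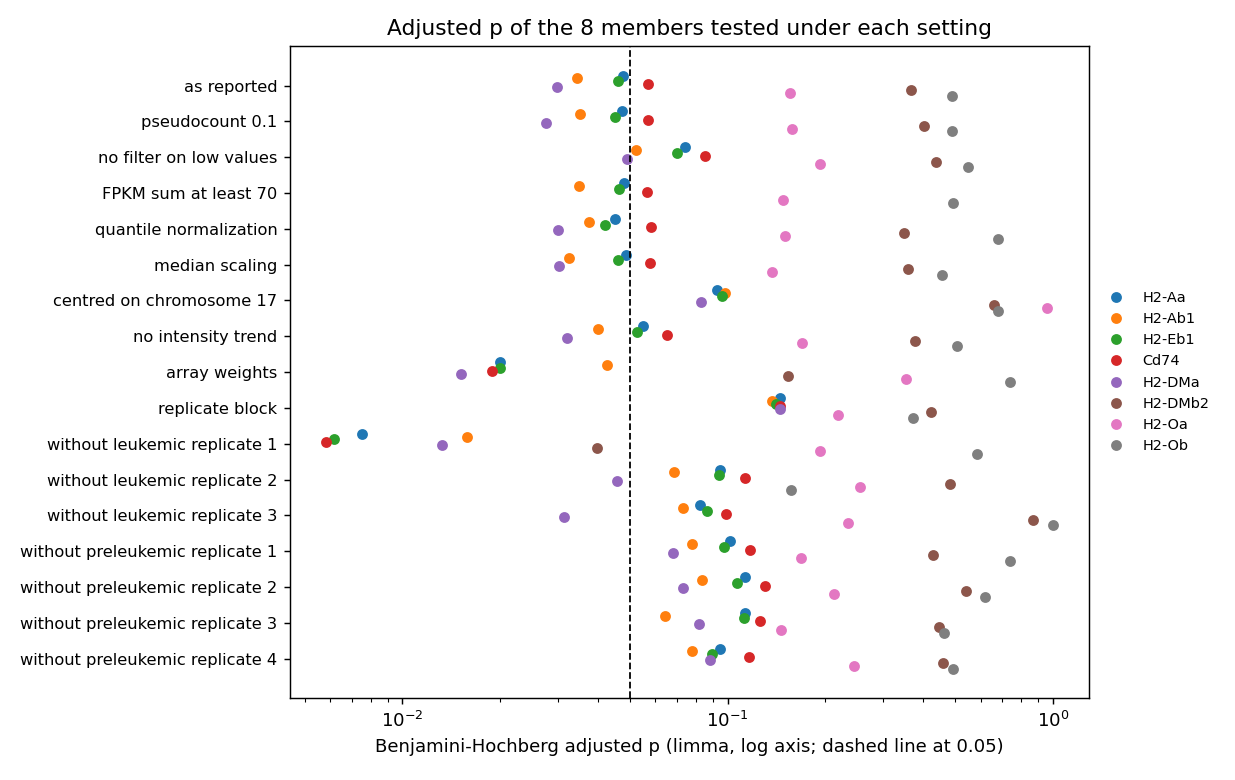
Benjamini-Hochberg adjusted p (limma, log axis) of the 8 members tested, as reported and under each of 16 other settings, with the threshold of 0.05 as a dashed line. H2-DMa lies left of the line in 9 of the 15 of these in which it passed the filter, and without leukemic replicate 1 the points of 6 members do.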

How the data were processed

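RNA-seq of 7 sorted BCP samples was used. The FPKM values were deposited by the authors for each sample, unpooled. The submitters' processing notes name mm10, STAR 2.5.0b, Cufflinks 2.2.1, Bowtie, bedtools 2.17.0 and DESeq2 without their roles, and the annotation is not given in the sources used here. The table has a floor of 0.01 FPKM and no counts, so the study's own test on counts was replaced by limma 3.58.1 (R 4.3.3) with an intensity trend on log2(FPKM + 1), for the 10541 genes whose FPKM added up to 10 or more. Depth was estimated from the steps between low FPKM values, and counting errors rest on it. Balance between members was tested by exact permutation over 35 labelings. Positions are those of the table. Shared transcript stretches came from GENCODE M21, and promoters from RefSeq GRCm38.p6. On simulated data for this comparison, 150 of 200 genes changed by 1 on the log2 scale were recovered, with 11 false calls. The simulated noise was independent between genes and had the same spread in both groups. In the data the spread was wider among leukemic samples in 9 of the 10 members, so these rates may not hold for them.

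Members and lists were chosen with earlier results of these data known. The rule named the members, the 5 genes nearest in profile to Cd74 and to Ciita, and of other lists the called genes and the gene with the highest level. Rfx5, Ctss, H2-K1, Nlrc5, Csf1r, Lyz2, Itgax, Zbtb46, Xcr1, Clec9a, Cd300c, Enpep and the interleaved genes of chromosome 17 were added after their values were seen. Alternatives were another pseudocount, other filters, quantile and median scaling, centring on chromosome 17, no trend, array weights, a replicate block and leaving out each sample.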

Additional observations from a re-analysis of the deposited data

Results flagged for a closer look

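H2-DMb2 in preleukemic replicate 2, at 2.34 FPKM, stood apart from the other 3 preleukemic samples, which lay between 3.69 and 3.78 FPKM. The gap was 0.941 of the group's range. Chance alone flags about 1 in 20 groups of this kind, and 18 values were examined.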

How the results depend on the processing

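Of the 16 alternatives, 6 left the count of members called within 1.5 times of the 4 reported. The count was 1 without a filter on low values, 2 without the intensity trend and 0 with centring on chromosome 17, and leaving out single samples gave 0 to 6. Among all genes, 951 were called at an FPKM sum of at least 70, and leaving out single samples gave 149 to 1620. Of the 1553 calls, 893 were higher and 660 lower, whereas quantile normalization gave 754 and 907. H2-Ob turned to -0.13 with centring on chromosome 17. With a pseudocount of 0.1 the difference between H2-DMa and H2-DMb1 turned to -0.47, and without single samples the difference between H2-DMb1 and H2-DMb2 ran from -0.27 to 0.40 and that between H2-Oa and H2-Ob from -0.10 to 0.36. The causes were not tested. With array weights, which were estimated per sample, Cd74 was called as well (limma adjusted p = 0.0189).

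Replicate numbers did not pair the samples (r between same-numbered deviations 0.0294, 0.0502 and -0.0925). With the number as a replicate block, in which preleukemic replicate 4 has no partner, 0 genes and 0 members were called, and H2-Aa, H2-Ab1, H2-Eb1, Cd74 and H2-DMa had limma adjusted p from 0.137 to 0.145. With 3 and 4 samples, and values of 2.21 fragments at the lowest for H2-DMb1, small differences of the low members were not detectable.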
